A study of Homo sapiens with 5 samples.

Results

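Integrins are the receptors with which a cell holds on to the matrix and to other cells, and focal adhesion proteins tie their inner ends to actin. The expression of 39 genes of this system was examined in TF-1 cells with and without *MTSS1*. The list was drawn up by gene name with earlier results of these data known. It comprises 17 integrin subunits (12 alpha and 5 beta chains) and 22 proteins that act on the inner side of the membrane. All 39 are among the 27328 Ensembl genes of the count table. TF-1 is a human acute myeloid leukemia (AML) line that was grown with GM-CSF, and all 5 libraries come from this line. The control was 2 pools of TF-1 cells that had been transduced with Cas9 and an sgRNA against *Renilla luciferase* (sgCtrl pools 1 and 2). The knockout was 3 pools transduced with Cas9 and 1 of 3 sgRNAs against *MTSS1* (sgMTSS1_1, sgMTSS1_2, and sgMTSS1_3). Each pool mixed 4 single-cell clones, so that a value is that of a mixture, and each knockout pool differs from the others in its sgRNA as well as in its clones. Clones of the knockout pools had been chosen for lack of MTSS1 protein on immunoblots. Pooled cells were kept in logarithmic growth overnight before RNA was extracted, and the libraries include no adhesion assay.

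An integrin is a pair of 1 alpha and 1 beta chain, and a chain without its partner does not reach the cell surface in quantity. Talin and kindlin bind the beta chain's tail and switch the receptor on. Vinculin, alpha-actinin, filamin, and zyxin connect it to actin, while paxillin, FAK, and p130Cas relay its signals. Blood cells use a set of their own, with the beta 2 chain and kindlin-3, and hold few stable adhesions because they grow in suspension. MTSS1 itself binds actin and curves membranes.

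QuantSeq libraries read each mRNA once near its poly(A) tail, so that counts do not grow with transcript length. Levels are given as CPM (counts scaled to a common library total) after TMM normalization, which corrects for differences in depth and composition between libraries. Totals were 2849979 and 3408827 counts in the control and between 5442639 and 8854899 in the knockout libraries. As every knockout library was the deeper, an effect of depth at the lowest levels cannot be told apart from condition. A level of 3 counts, the smallest used here as a floor, stood for 0.389 to 0.938 CPM. Genes were called when the Benjamini-Hochberg adjusted p of edgeR's quasi-likelihood test over all 14391 tested genes was under 0.05 and the log2-fold change beyond 1 in either direction. By this rule 5.18% of the tested genes were called, 4.17% as higher and 1.01% as lower in the knockout, and the share was again 5.18% with no fold threshold. Nothing in the labels says that pools were grown on separate days, so p-values measure the spread between these pools. *MTSS1* mRNA itself overlapped between the groups, at 204 and 87.9 CPM in the control and 104, 139, and 49.9 CPM in the knockout pools (log2-fold change −0.58, adjusted p = 0.494 in edgeR), and so does not check the labels. *NDUFB9*, on the opposite strand, overlaps the last 1000 bases of *MTSS1*. It was at 326 and 211 CPM in the control and 803, 574, and 622 CPM in the knockout. As the use of strand in counting is not stated, the *MTSS1* count is uncertain. Among markers of the line, *CD34*, *CD33*, *KIT*, *GATA1*, and *GATA2* were seen in every pool, and the 12 markers of erythroid and myeloid progenitors summed to 1779 to 2257 CPM in the control and 1591 to 1990 CPM in the knockout. Of these sums *HBG2* made up 286 and 819 CPM in the control and 222, 42.1, and 344 CPM in the knockout. *CD34* (log2-fold change 0.99, adjusted p = 0.148 in edgeR), *KIT*, *KLF1*, and *CSF2RB* were above both control pools in every knockout pool. *GATA1* and *MYB* were below both, and the other markers of the line overlapped between the groups. Of 8 monocyte and granulocyte markers, the 5 in the table summed to at most 3.58 CPM in any pool. For megakaryocyte markers the sum was 54.5 to 93.2 CPM in the control and 31.0 to 53.6 CPM in the knockout. Of the control sums, *GP6* alone made up 70.0 and 31.6 CPM, and every megakaryocyte marker present overlapped between the groups. For lymphocyte markers the sum was 10.01 to 14.3 CPM in the control and 5.06 to 10.96 CPM in the knockout. Of these, *CD79A* was at 6.25 and 2.38 CPM in the control and 0.519, 0.903, and 0.696 CPM in the knockout. Its log2-fold change was −2.59 (adjusted p = 0.0506 in edgeR). The sum for fibroblast, epithelial, and endothelial markers was higher in the knockout (347 to 398 CPM) than in the control (211 to 253 CPM), nearly all of it *PECAM1* and *KRT18*, while *COL1A1*, *COL1A2*, *DCN*, and *EPCAM* stayed at or below 0.696 CPM in every pool. None of the 22 tested markers was called by edgeR, DESeq2, or limma-voom, with 4 at an unadjusted p under 0.05 in edgeR, and the part of these markers in the results was not tested.

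Of the 39 genes, 4 passed both thresholds. *ITGB2* (the beta 2 integrin chain) and *ZYX* (zyxin) rose, and *PDLIM7* (enigma, a PDZ and LIM domain protein of actin fibers) fell. *PXN* (paxillin) was also called higher, but it passed the filter on low counts through the knockout pools alone, so that only a gene that differed could be tested and its call adds no support. A further group that includes *ITGA2B* and *VASP* on the higher side and *ITGA5*, *VCL*, and *TLN1* on the lower side had every knockout pool beyond both control pools but did not pass the adjusted threshold. The median log2-fold change of the 34 tested genes was −0.04, against −0.03 over all tested genes, with 16 positive and 18 negative values. The 4 calls, *PXN* included, are 11.8% of the 34 tested genes, beside 5.18% of all tested genes. Of the 29 genes that reached the filter's level in both control pools, 3 were called. The like share over all genes was not computed. An unadjusted p under 0.05 was reached by 13 of the 34 (38.2%), beside 23.3% of all tested genes. In 10 of the 34 (29.4%) every knockout pool lay above both control pools, beside 22.2% of all genes, and in 7 (20.6%) every knockout pool lay below, beside 19.2%. The filter on low counts removed 5 of the 39, and 5 of the 34 that passed were under the filter's level in at least 1 control pool (*ITGA6*, *ITGAX*, *ILK*, *PARVG*, and *PXN*), so that these shares do not describe all 39. The fold changes of the tested genes are plotted by role. In a bulk sample, a lower level in each cell and fewer cells or clones with the transcript cannot be told apart.

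**Figure D1:**
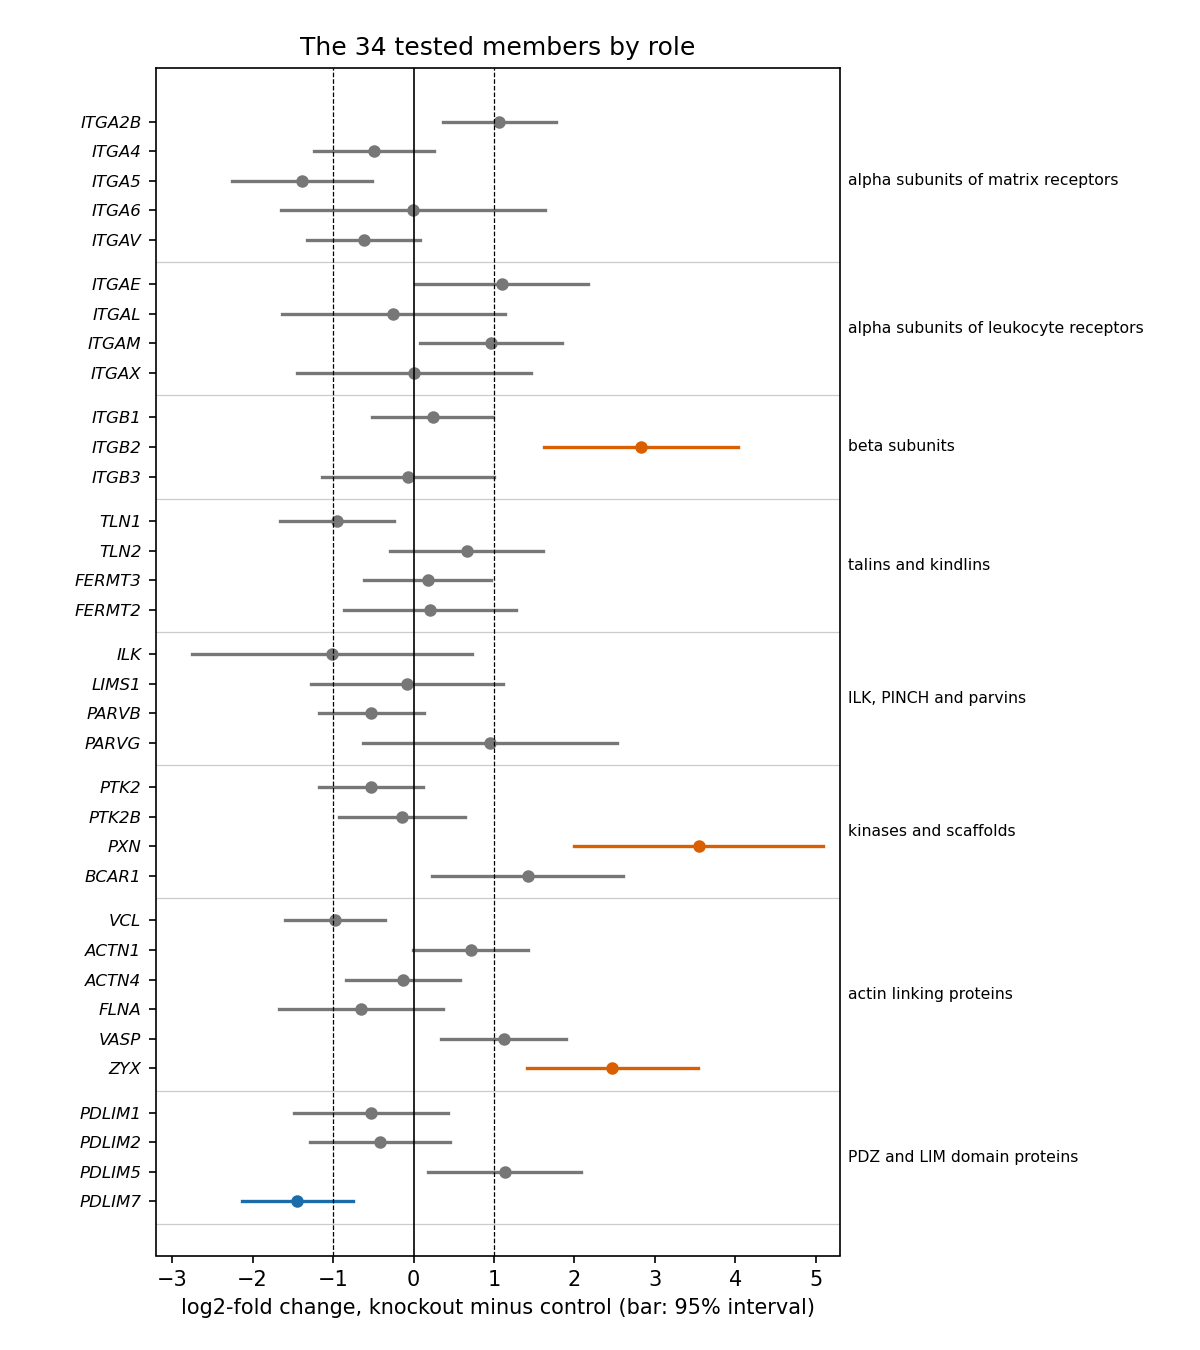
Log2-fold changes of the 34 tested genes between knockout and control pools, grouped by role, with 95% intervals as bars and dashed lines at −1 and 1. *ITGB2*, *PXN*, and *ZYX* (orange) were called higher and *PDLIM7* (blue) lower, and the gray genes were not called.

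Of the 3 tested beta chains, *ITGB2* alone was called. *ITGB2* (ENSG00000160255, chromosome 21 of GRCh38, 44885953 to 44931989, minus strand) encodes CD18, the beta chain shared by LFA-1, Mac-1, and the other leukocyte integrins. It stood at 30.3 CPM in control pool 1, at 107 CPM in control pool 2, and at 405 (sgMTSS1_1), 445 (sgMTSS1_2), and 617 CPM (sgMTSS1_3) in the knockout, the order used for all genes that follow. All knockout pools were far above both control pools, although the latter were themselves far apart. *ITGB2* rose 7.10-fold, or by 2.83 ± 0.54 (SE) on the log2 scale (adjusted p = 0.022 in edgeR), and kept that side of 1 without control pool 1 (2.20) and without control pool 2 (4.04). Its antisense neighbor *ITGB2-AS1* does not reach the last 1000 bases of the gene and stayed between 0.519 and 2.19 CPM. *ITGB1*, the partner of the widest range of alpha chains, was at 102 and 62.0 CPM in the control and 120, 81.2, and 88.4 CPM in the knockout, with a log2-fold change of 0.24 (95% interval −0.51 to 0.99). *ITGB3*, which pairs with *ITGA2B* on platelets, was between 5.94 and 8.34 CPM in the control and between 3.83 and 8.95 CPM in the knockout. For both chains the pools overlapped. *ITGB5* had 0 counts in both control libraries, against 4, 2, and 5 with the knockout, and *ITGB7* at most 2 counts in any pool. Neither was tested, and no fold is given because both groups lie at or near the floor of 3 counts.

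The alpha chains that pair with *ITGB2* were called by none of edgeR, DESeq2, and limma-voom, and *ITGAM* alone had an unadjusted p under 0.05 in edgeR. *ITGAL* (CD11a) was at 5.94 and 2.68 CPM in the control and 2.21, 6.14, and 2.61 CPM in the knockout pools. *ITGAX* (CD11c) was at 6.25 and 1.19 CPM in the control and 3.76, 2.89, and 4.52 CPM in the knockout. The pools overlapped for both genes, whose log2-fold changes were −0.25 (95% interval −1.64 to 1.14) and 0.01 (−1.44 to 1.46), so that changes of more than 2-fold in either direction are within the error. *ITGAM* (CD11b) was at 5.94 and 7.45 CPM in the control and 16.1, 12.8, and 10.3 CPM in the knockout. Every knockout pool lay above both control pools, and the log2-fold change of 0.96 ± 0.39 (SE) was not called (adjusted p = 0.179 in edgeR). Summed, these alpha chains were at 18.1 and 11.3 CPM in the control and 22.1, 21.8, and 17.4 CPM in the knockout. For each of their mRNAs control pools thus held 1.67 and 9.47 *ITGB2* mRNAs, and knockout pools 18.4, 20.4, and 35.5. This ratio did not overlap between the groups but differed widely between the control pools. *ITGAE* (CD103), which pairs with the nearly undetected *ITGB7*, was at 26.0 and 9.83 CPM in the control and 55.4, 27.1, and 31.8 CPM in the knockout (log2-fold change 1.09, standard error 0.48, adjusted p = 0.205 in edgeR). It passed only without control pool 1 (log2-fold change 1.97, adjusted p = 0.0486 in edgeR), and was 0.58 (adjusted p = 0.459) without control pool 2. The levels of the beta 2 and beta 1 families are plotted by pool.

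**Figure D2:**
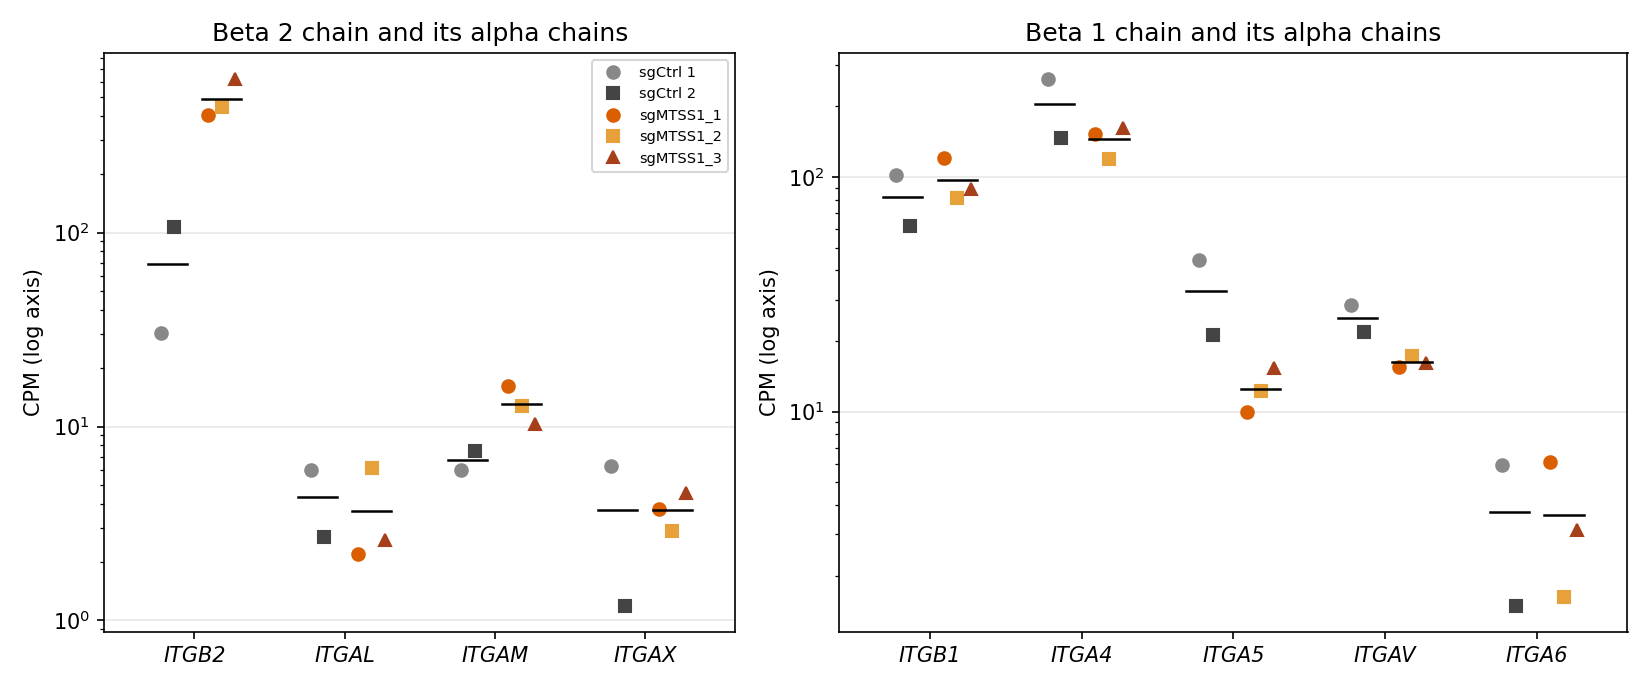
CPM on a log axis in each of the 5 pools (points) with the group means (lines) for *ITGB2* and its alpha chains (left) and for *ITGB1* and its alpha chains (right). *ITGB2* lies at 405 to 617 CPM in the knockout against 30.3 and 107 CPM in the control, while *ITGAL* and *ITGAX* overlap between the groups; on the right, *ITGA5* and *ITGAV* are lower in each knockout pool without being called.

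Because of *ITGB2*, all 17 integrin subunits together took a larger part of the counts in the knockout. Their sum was 644 and 474 CPM in the control and 990, 974, and 1166 CPM in the knockout pools, 1.87 times the control mean. Without *ITGB2* it was 613 and 367 CPM in the control and 585, 529, and 548 CPM in the knockout, where the groups overlap. The share of *ITGB2* in the summed CPM of all 17 was 4.71% and 22.6% in control pools, against 40.9%, 45.7%, and 53.0% in knockout pools.

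None of the 5 tested alpha chains of matrix receptors was called by edgeR, and 2 of them, *ITGA2B* and *ITGA5*, had an unadjusted p under 0.05. *ITGA2B* (CD41), the alpha chain of the platelet fibrinogen receptor, was at 120 and 83.1 CPM in the control and 193, 239, and 208 CPM in the knockout pools. All knockout pools were above both control pools, with a log2-fold change of 1.07 ± 0.31 (SE; adjusted p = 0.0799 in edgeR). DESeq2 called it (log2-fold change 1.10, adjusted p = 0.019), as did edgeR without control pool 1 (1.37, adjusted p = 0.0392) but not without control pool 2 (0.85, adjusted p = 0.151) or with library size as the sole scaling (0.92, adjusted p = 0.154). *GP6*, another platelet gene and the collagen receptor, was at 18.3, 37.2, and 14.8 CPM in the knockout against 70.0 and 31.6 CPM in the control, where the pools overlap. Its log2-fold change was −1.12 (adjusted p = 0.186 in edgeR). The other tested megakaryocyte and platelet markers, *GP1BA*, *GP9*, and *TUBB1*, had log2-fold changes of 0.03, −0.47, and −1.12. Their pools overlapped as well.

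*ITGA5*, the alpha chain of the classical fibronectin receptor, lay on the opposite side. It was at 44.4 and 21.2 CPM in the control and 9.99, 12.3, and 15.3 CPM in the knockout pools, each of which was below both control pools. The log2-fold change was −1.39 ± 0.39 (SE; adjusted p = 0.0707 in edgeR). DESeq2 called it (−1.36, adjusted p = 0.0389), and so did edgeR without control pool 2 (−1.80, adjusted p = 0.0226), whereas without control pool 1 the log2-fold change was −0.75. The ratio of *ITGA5* to *ITGB1* CPM in the same pool was 0.436 and 0.341 in the control. In the knockout it was 0.083, 0.151, and 0.173. A lower ratio was not particular to *ITGA5*. With *ITGA4* in its place, control cells held 2.56 and 2.37 for each *ITGB1* mRNA, and knockout cells 1.26, 1.46, and 1.84. *ITGAV*, the alpha chain of vitronectin receptors, was at 28.5 and 21.8 CPM in the control and 15.4, 17.3, and 16.2 CPM in the knockout (log2-fold change −0.62, 95% interval −1.32 to 0.08). *ITGA4*, the alpha chain of VLA-4 that binds VCAM1 and fibronectin, was at 260 and 147 CPM in the control and 152, 119, and 162 CPM in the knockout, where the pools overlap (−0.50, 95% interval −1.24 to 0.25). *ITGA6*, a laminin receptor chain, had between 5 and 47 counts and a log2-fold change of −0.01 with a 95% interval from −1.65 to 1.64. *ITGA1*, *ITGA2*, and *ITGA7*, chains of collagen and laminin receptors, had at most 7 counts in any pool and were not tested.

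Among the proteins that activate integrins, *TLN1* (talin-1), which links the beta chain to actin, was at 447 and 507 CPM in the control and 183, 286, and 273 CPM in the knockout pools. Every knockout pool was below both control pools, with a log2-fold change of −0.95 ± 0.32 (SE; adjusted p = 0.112 in edgeR). Its paralog *TLN2* was at 14.4 and 12.2 CPM in the control and 12.2, 21.7, and 29.4 CPM in the knockout (0.66, 95% interval −0.29 to 1.61). *FERMT3*, kindlin-3 of blood cells, was at 47.2 and 88.2 CPM in the control and 92.2, 59.9, and 77.2 CPM in the knockout, and its log2-fold change was 0.18 (95% interval −0.62 to 0.97). *FERMT2*, the kindlin of adherent cells, stayed between 2.98 and 4.87 CPM in all pools. The pools overlapped for *TLN2* and for both of these kindlins. Another kindlin, *FERMT1*, is outside the set. It was at 6.25 and 5.07 CPM in the control and 16.3, 12.1, and 20.7 CPM in the knockout. Each knockout pool lay above both control pools, without a call (log2-fold change 1.53, adjusted p = 0.0605 in edgeR).

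The complex of ILK, PINCH, and parvin sits behind kindlin and carries the link to actin. *PARVB* (beta-parvin) was at 103 and 97.4 CPM in the control and 55.0, 80.2, and 74.1 CPM in the knockout, lower in each knockout pool but not called (−0.52, 95% interval −1.18 to 0.13). *LIMS1* (PINCH-1) was at 73.8 CPM in control pool 1 but 362 CPM in control pool 2, against 195, 220, and 204 CPM in the knockout. The control pools thus lay on either side of all knockout pools, and the fold change rested on which was kept. It was 1.51 on the log2 scale without control pool 2 (adjusted p = 0.0331 in edgeR) and −0.80 without control pool 1. *PARVG* (gamma-parvin, the form of blood cells) had 2 to 25 counts and *ILK*, the scaffold of the complex, 2 to 14. *ILK* ends on top of *TAF10*, which runs on the opposite strand and had only 2 to 8 counts, and whether counting dropped reads shared by such a pair was not tested.

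Of the kinases and scaffolds, *PXN* alone was called. Paxillin is the scaffold on which FAK and other adhesion kinases meet. *PXN* (ENSG00000089159, chromosome 12, 120210439 to 120265771, minus strand) had 1 and 2 counts in the control libraries, against 55, 27, and 27 in those of the knockout, or 0.313 and 0.596 CPM against 7.13, 4.87, and 4.70 CPM. The groups were far apart, but both control pools were under the floor of 3 counts and under the filter's level of 1.84 CPM, which the gene passed only where it was high. The fitted log2-fold change was 3.54 ± 0.69 (SE; adjusted p = 0.0234 in edgeR), values that this selection limits. From the 3 control and 109 knockout counts, the ratio of the pooled levels was 12.5 (95% Clopper-Pearson interval 4.18 to 61.7), an interval for counting error alone that treats each read as an independent molecule, although QuantSeq reads here carry no molecular identifier. In limma-voom *PXN* did not pass (adjusted p = 0.0642). The antisense gene *PXN-AS1*, which overlaps the last 1000 bases of *PXN*, was at 0.938 and 2.38 CPM in the control and 4.67, 1.81, and 2.61 CPM in the knockout. Its pools overlapped, and since it is not stated whether counting used strand, reads of the pair cannot be told apart.

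*BCAR1* (p130Cas), a docking protein phosphorylated at adhesions, was at 4.38 and 2.68 CPM in the control and 5.32, 12.6, and 10.6 CPM in the knockout, above both control pools throughout (log2-fold change 1.42, standard error 0.53, adjusted p = 0.147 in edgeR). The kinases themselves went without a call. *PTK2* (FAK) was at 77.2 and 84.3 CPM in the control and 46.6, 64.5, and 57.4 CPM in the knockout, each knockout pool below both control pools (−0.53, 95% interval −1.17 to 0.12). *PTK2B* (PYK2), its relative in blood cells, was at 20.0 and 24.4 CPM in the control and 14.3, 21.1, and 25.1 CPM in the knockout, where the pools overlap.

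Among proteins that link adhesions to actin, *ZYX* stood out. Zyxin is a LIM domain protein that gathers VASP at adhesions under tension. *ZYX* (ENSG00000159840, chromosome 7, 143381295 to 143391111, plus strand) was at 13.4 and 4.47 CPM in the control and 38.7, 56.0, and 54.1 CPM in the knockout pools. All knockout pools were above both control pools, and *ZYX* rose 5.54-fold, or by 2.47 ± 0.47 (SE) on the log2 scale (adjusted p = 0.0221 in edgeR). *EPHA1*, which overlaps its 3′ end on the opposite strand, had at most 5 counts in any library. *VASP*, the actin polymerase that zyxin recruits, was at 265 and 151 CPM in the control and 407, 483, and 465 CPM in the knockout. It lay above both control pools in each knockout pool (log2-fold change 1.12, standard error 0.35, adjusted p = 0.0938 in edgeR). DESeq2 called *VASP* (1.15, adjusted p = 0.0166), as did edgeR without control pool 1 (1.59, adjusted p = 0.0283) but not without control pool 2 (0.80, adjusted p = 0.175).

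*VCL* (vinculin), which binds talin and strengthens its hold on actin, lay like *TLN1* below both control pools in each knockout pool, at 131 and 112 CPM in the control and 59.8, 56.7, and 68.6 CPM in the knockout. The control pools and the knockout pools were each close together, and the log2-fold change was −0.97 ± 0.28 (SE; adjusted p = 0.0726 in edgeR). *ACTN1* (alpha-actinin-1) was at 139 and 179 CPM in the control and 204, 311, and 265 CPM in the knockout (0.71, 95% interval −0.0045 to 1.43), and *ACTN4* at 209 and 168 CPM against 128, 207, and 182 CPM (−0.13, 95% interval −0.84 to 0.58). *FLNA* (filamin A) differed more between the control pools, at 270 and 736 CPM, than between the groups, with 216, 318, and 425 CPM in the knockout. Of the 6 genes of this class, 3 had positive and 3 negative log2-fold changes, and edgeR called *ZYX* alone.

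PDLIM proteins carry 1 PDZ domain, which binds alpha-actinin, and 1 or more LIM domains. *PDLIM7* (ENSG00000196923, chromosome 5, 177483394 to 177497606, minus strand) was at 74.1 and 76.9 CPM in the control and 20.8, 33.2, and 29.4 CPM in the knockout pools. The control pools hardly differed, and all knockout pools were far below them. *PDLIM7* fell by 1.44 on the log2 scale (standard error 0.31, adjusted p = 0.031 in edgeR), a level 2.72-fold lower than in the control, and no gene that overlaps it on either strand is in the table. *PDLIM5* was on the opposite side, at 41.0 and 109 CPM in the control and 133, 187, and 173 CPM in the knockout (1.13, standard error 0.42, adjusted p = 0.148 in edgeR). In edgeR it passed only without control pool 2 (2.03, adjusted p = 0.0195), and was 0.60 (adjusted p = 0.27) without control pool 1. *PDLIM1* was at 176 and 61.4 CPM in the control and 65.8, 78.4, and 103 CPM in the knockout, and *PDLIM2* at 13.8 and 25.9 CPM against 16.7, 16.8, and 10.96 CPM. For both the pools overlapped, with log2-fold changes of −0.53 (95% interval −1.49 to 0.43) and −0.42 (−1.29 to 0.45).

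**Figure D3:**
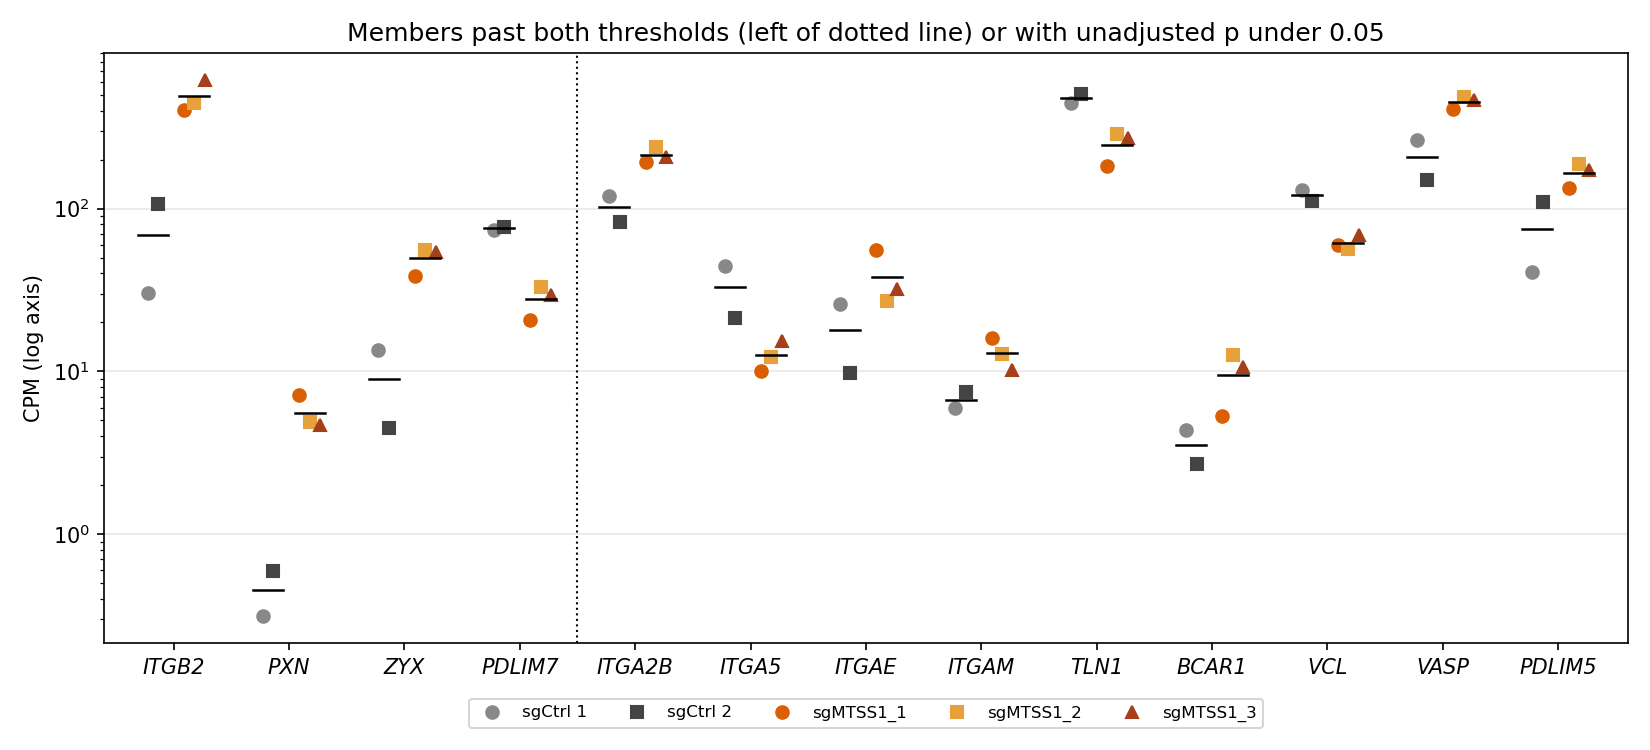
CPM on a log axis in each of the 5 pools (points) with the group means (lines), for the 4 called genes (left of the dotted line) and the 9 others with an unadjusted p under 0.05 and no overlap between groups. *PDLIM7* lies at 74.1 and 76.9 CPM in the control and between 20.8 and 33.2 CPM in the knockout, while the control pools of *ITGB2* and *ZYX* are farther apart than those of *PDLIM7*, *VCL*, and *TLN1*.

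For 3 of the 4 called genes, the 250 bases before the RefSeq start are shown. *ZYX* rose and *PDLIM7* fell, while *PXN* is shown although its call adds no support. Sequences are from RefSeq (GRCh38.p14), in which 31 of the 39 genes had an entry, and read 5′ to 3′ toward the start of the gene. The RefSeq starts lie inside the gene positions given above, so the last bases of each window fall within the gene as positioned there. Capitals mark GGGCGG, the GC box bound by SP1, on either strand; where 2 copies share a base the run is continuous. For *PXN*, which has 2 entries, the one farther upstream is shown.

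*PXN*, chr12:120265731-120265980, minus strand: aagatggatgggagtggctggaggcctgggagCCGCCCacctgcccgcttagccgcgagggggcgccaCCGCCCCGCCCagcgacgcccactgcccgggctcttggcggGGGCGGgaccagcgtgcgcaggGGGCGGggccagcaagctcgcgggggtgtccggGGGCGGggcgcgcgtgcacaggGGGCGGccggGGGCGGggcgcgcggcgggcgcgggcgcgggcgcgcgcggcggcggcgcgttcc
*ZYX*, chr7:143381095-143381344, plus strand: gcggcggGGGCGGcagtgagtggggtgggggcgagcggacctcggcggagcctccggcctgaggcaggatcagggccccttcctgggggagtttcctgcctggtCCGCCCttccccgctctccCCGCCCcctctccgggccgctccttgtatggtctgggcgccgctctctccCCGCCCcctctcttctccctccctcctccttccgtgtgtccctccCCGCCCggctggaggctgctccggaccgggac
*PDLIM7*, chr5:177497605-177497854, minus strand: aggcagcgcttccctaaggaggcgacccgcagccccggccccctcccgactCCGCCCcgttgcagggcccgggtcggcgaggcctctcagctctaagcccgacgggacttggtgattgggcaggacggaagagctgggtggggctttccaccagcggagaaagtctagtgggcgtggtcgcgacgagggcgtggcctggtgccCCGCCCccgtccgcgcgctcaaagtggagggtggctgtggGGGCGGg

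These windows held 8, 5, and 3 GC boxes in *PXN*, *ZYX*, and *PDLIM7*, and were 83.6%, 74.8%, and 72.0% G or C, where the median over all promoters was 58.0%. The other *PXN* entry (chr12:120250164-120250413, minus strand) differed from the one shown on each of these counts, with 0 GC boxes, 2 copies of GAGGAA, and 53.6% G or C. GGGCGG on either strand was present in 42.6% of the 35116 promoter entries and in 28 of the 50 entries of the genes examined here (56.0%). GAGGAA, the core bound by PU.1, was present in 23.6% of all entries and in 32.0% of those of these genes, but in none of the 3 windows shown. The CArG box, bound by serum response factor, was present in 1.16% of all entries and in 4.00% of those examined, namely 1 each of *ACTN1* and *FLNA*. A match says only that the letters are present, and the absence of one says nothing about binding elsewhere.

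Other genes of adhesion were read from a list of 83, of which 75 were in the table and 55 were tested. Here 3 of the 55 (1 higher and 2 lower) were called, a share near the 5.18% of all tested genes, and the median log2-fold change was −0.23, with 21 positive and 34 negative values. The called genes encode tetraspanins, small membrane proteins that organize integrins and other receptors, but differed in direction. Of other tetraspanins in the list, *CD82* overlapped between the groups (log2-fold change 0.15, adjusted p = 0.89 in edgeR) and *CD9*, with 0 counts in 4 of the 5 libraries, was not tested. *CD63*, a tetraspanin of lysosomes and granules, rose from 162 and 206 CPM in the control to 966, 564, and 659 CPM in the knockout (log2-fold change 1.99, standard error 0.37, adjusted p = 0.0215 in edgeR). *CD81* fell from 295 and 221 CPM to 78.7, 111, and 112 CPM (−1.36, standard error 0.31, adjusted p = 0.0364 in edgeR). *CD151*, which binds laminin receptors directly, fell from 208 and 139 CPM to 64.1, 71.1, and 84.0 CPM (−1.25, standard error 0.30, adjusted p = 0.0457 in edgeR). *CD151* shares its 3′ end with *POLR2L* on the opposite strand, which was at 486 and 659 CPM in the control and 382, 289, and 362 CPM in the knockout, so its count is uncertain.

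Over all 14391 tested genes, 7439 log2-fold changes were below 0, and 23.3% had an unadjusted p under 0.05 in edgeR. The classes of the other adhesion genes are given beside these shares. By class, the kinases, adaptors, and exchange factors had 12 of 15 log2-fold changes below 0 and a median of −0.46. An unadjusted p under 0.05 was reached by 5 of them, and neither edgeR, DESeq2, nor limma-voom called any. The class of parvin, PINCH, tensin, and actin linking proteins had 11 of 16 below 0 (median −0.31, 4 with an unadjusted p under 0.05, none called by any of these tools). Of 11 genes of integrin activation and trafficking, 7 were above 0 (median 0.02, 3 with an unadjusted p under 0.05, 0 called by edgeR and limma-voom and 1 by DESeq2). The 9 ligands and membrane partners, with all 3 calls, had 5 above 0 and a median of 0.15. The 4 tested integrin subunits outside the 39 had pools that overlapped, with log2-fold changes between −0.80 and 0.40, no unadjusted p under 0.05, and no call in the same tools.

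The calls rest on all 3 knockout pools. Without the sgMTSS1_1 pool or the sgMTSS1_3 pool, edgeR called none of the tested genes of the set, with 13 and 10 of 33 at an unadjusted p under 0.05. Without the sgMTSS1_2 pool it called *PXN* alone. Calls over all genes dropped in the same fits, from 745 to 111 without sgMTSS1_1, 347 without sgMTSS1_2, and 191 without sgMTSS1_3. Without any 1 of the 5 pools, log2-fold changes kept their sign, with ranges of 2.20 to 4.04 for *ITGB2*, 3.20 to 4.09 for *PXN*, 1.91 to 3.47 for *ZYX*, and −1.55 to −1.28 for *PDLIM7*. The fold changes of other genes depended on which control pool was kept. Without control pool 1 or control pool 2, log2-fold changes were 1.37 or 0.85 for *ITGA2B* and 1.97 or 0.58 for *ITGAE*. In the same order they were 1.59 or 0.80 for *VASP* and −0.75 or −1.80 for *ITGA5*. For *LIMS1* they were −0.80 or 1.51, and for *PDLIM5* 0.60 or 2.03. With 1 control pool left, that pool is assumed to vary as the knockout pools do.

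**Figure D4:**
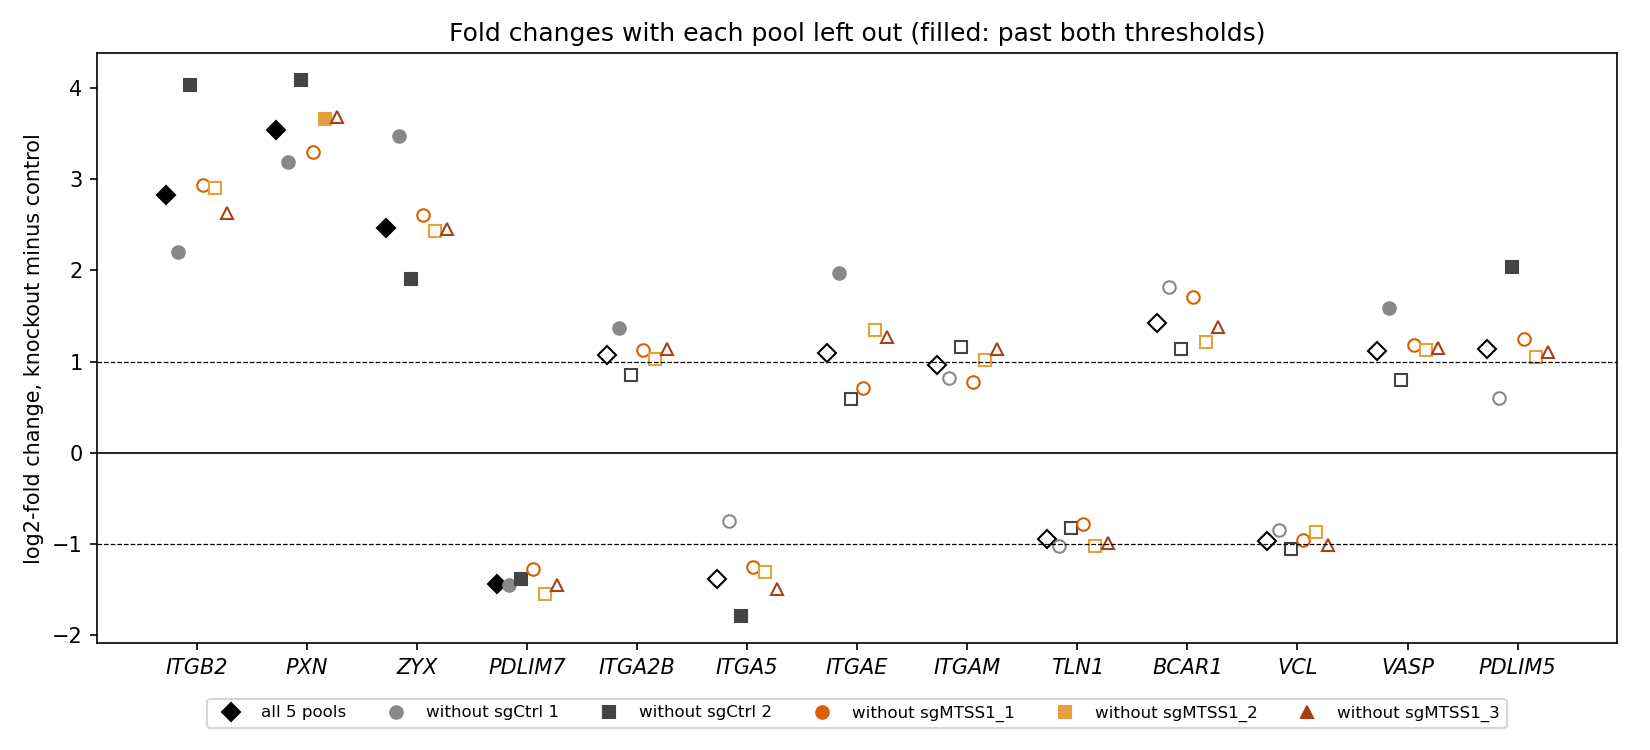
Log2-fold changes with all 5 pools (diamonds) and with each pool left out in turn, for the 4 called genes and 9 others; filled symbols passed both thresholds. Leaving out a knockout pool leaves the fold changes of *ITGB2*, *PXN*, *ZYX*, and *PDLIM7* on the same side of 0, but all except *PXN* without sgMTSS1_2 turn to open symbols.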

How the data were processed

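RNA-seq was performed on 2 control and 3 *MTSS1* knockout pools of TF-1 cells. The authors prepared QuantSeq 3′ libraries, aligned reads to GRCh38 with HISAT2 2.1.0, discarded multimapping reads (SAMtools 1.10), and deposited raw counts per Ensembl gene without normalization. The counting program, annotation release, and use of strand are not given in the sources used here. On the opposite strand, a gene of the table overlaps the last 1000 bases of 15 of the 39 genes, among them *ITGA4*, *ITGA5*, and *VCL*. Counts of these genes share the uncertainty given above for *MTSS1*. The authors left out a control pool and a knockout pool as expression outliers of their groups, and these were not analysed here. The pools that remain were thus kept for lying near their group, so the spread between them may be too small.

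Pools were grouped by their titles. Differences were tested by edgeR 4.0.16 in R 4.3.3 (filterByExpr at a minimum count of 10, TMM, quasi-likelihood test, condition alone) and p-values were adjusted by Benjamini-Hochberg over all 14391 tested genes. Standard errors and 95% intervals come from the fold change and its F statistic. CPM use the deposited counts and TMM-scaled totals. Names and positions are from GENCODE release 44, which gives 27211 of the 27328 genes a symbol. On simulated counts for 14391 genes of this comparison, the test called 68.5% of 200 genes changed 4-fold and 4 unchanged genes. Of 200 genes changed 2-fold it called 0. A 2-fold change lies on the fold threshold itself, and the simulation gave every gene the same dispersion. A missing call thus says little about changes of that size.

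All 39 genes are named, and every pool's value was to be given for those with an adjusted p under 0.05, or an unadjusted p under 0.05 and no overlap between groups. Pool values of most other tested genes are given as well. Genes that overlap others were added after their values were seen. Members, lists, motifs, and tests were chosen with earlier results of these data known. Alternatives used DESeq2 1.42.0, limma-voom (limma 3.58.1), other normalizations and filters, thinning, a replicate block, and left-out pools.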

Additional observations from a re-analysis of the deposited data

How the results depend on the processing

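*ITGB2*, *ZYX*, and *PDLIM7* passed both thresholds under each alternative except the fits without a knockout pool, and *PXN* under those that tested it, except limma-voom and the fits without sgMTSS1_1 or sgMTSS1_3. Of the 34 tested genes, 20 kept their sign under every alternative. Low depth limits *PXN*, *ILK*, *ITGA6*, *ITGAX*, and *PARVG* most.

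With library size as the sole scaling, the median of all genes went from −0.03 to −0.17 and that of the 34 genes to −0.19, without changing which of them were called; over all genes it called 232 as lower. The median of the tested genes of the set was 0.14 with no filter (0.11 for all genes), 0.15 in limma-voom, 0.14 with the replicate block, and 0.0139 to 0.43 with a pool left out. DESeq2 called 7 genes of the set, 5 higher and 2 lower, and 1286 of all genes (1042 higher, 244 lower). With no filter 5 were higher, among 1374 of all genes (1173 higher). Of the other adhesion genes, DESeq2 called 2 as higher, no filter 2 as higher and 1 as lower, and limma-voom 1 as lower. With a pool left out, the set had 0 to 7 calls (0 to 6 higher, 0 to 2 lower), the other adhesion genes 0 to 4 (0 to 1 higher, 0 to 3 lower), and all genes 111 to 1349 (107 to 917 higher, 4 to 432 lower).

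Pool numbers 1 and 2 occur in both groups, but nothing says that they mark a shared batch. The difference between pools 1 and 2 had a Pearson's r of 0.17 between control and knockout, across genes, which are not independent. With the number as a block, 1094 genes were called, and *ITGA5* passed (log2-fold change −1.48, adjusted p = 0.0488 in edgeR), which made 2 lower genes in the set and changed no other call in it.

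Signs turned for genes near 0. *ITGA6* was 0.14 with no filter, 0.021 in DESeq2, 0.12 in limma-voom, 0.070 with the block, and 0.14 when thinned. *ITGAX* was −0.17 with library size alone and −0.15 when thinned. *ITGB3* was 0.082 with no filter and 0.22 with the block. *LIMS1* was 0.074 with no filter, 0.33 in limma-voom, and 0.33 with the block. With no filter, *PTK2B* was 0.0041 and *ACTN4* 0.020. With a pool left out, the log2-fold changes ranged from −1.04 to 0.16 for *MTSS1*, −0.66 to 1.31 for *ITGA6*, −0.78 to 0.43 for *ITGAL*, −0.72 to 1.64 for *ITGAX*, −0.048 to 0.65 for *ITGB1*, −0.34 to 0.24 for *ITGB3*, −0.19 to 0.72 for *FERMT3*, −0.020 to 0.51 for *FERMT2*, −1.61 to 0.12 for *ILK*, −0.80 to 1.51 for *LIMS1*, −0.30 to 0.044 for *PTK2B*, −0.25 to 0.048 for *ACTN4*, −1.19 to 0.27 for *FLNA*, −1.07 to 0.44 for *PDLIM1*, and −0.79 to 0.14 for *PDLIM2*. The cause was not tested for any of these.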
